A study of Homo sapiens with 6 samples.

Results

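The bZIP genes encode transcription factors with a basic region that binds DNA and a leucine zipper that joins 2 partners. They were taken as the rows that the deposited table assigns to the bZIP transcription factor family, 48 of the 58735 genes in the table. Here they are grouped by relationship into JUN, FOS, BATF, ATF, CREB, membrane-bound CREB3 and ATF6, XBP1, DDIT3, PAR, large and small MAF, CNC and BACH proteins. The table keeps the C/EBP proteins under a class of their own, with 5 genes, which are given beside the members and not counted with them. DDIT3, a C/EBP relative, is filed under the bZIP family and is a member.

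A bZIP protein works as a dimer, and the pair it forms sets which DNA element it binds. JUN and FOS proteins form AP-1, which binds the TPA response element, while CREB and ATF proteins bind the cAMP response element. The CNC protein NFE2L2 (NRF2) needs a small MAF partner to bind antioxidant response elements. ATF4, ATF6 and XBP1 carry signals of amino acid shortage and of unfolded proteins in the endoplasmic reticulum. In the intestinal epithelium, AP-1, NRF2 and these stress factors take part in renewal, detoxification and secretion.

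The cells were T84, an established human colorectal cancer line, grown in DMEM/F12 with serum. One group of 3 libraries carried a control hairpin (shControl) with a genotype entered as wild type. The other 3 carried a hairpin against ACSL4 (shACSL4), an acyl-CoA synthetase of polyunsaturated fatty acids, with a genotype entered as a knockdown. The design text calls the cells knockout, and neither a clone nor a hairpin sequence is named. Separate cultures are not stated for the 3 libraries of a group, so each p-value reflects spread among these libraries, which may be technical.

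Gene counts summed to between 14740383 and 17620630 per library. ACSL4, the targeted gene, lay at 72.0 to 75.5 CPM (counts scaled to a common library size) in shControl and at 9.12 to 11.1 CPM in shACSL4 (log2 fold change -2.85, SE 0.10). Summed colonic epithelial markers (9 genes, none at 0) ranged from 6015 to 7154 CPM in shControl and from 7228 to 8594 CPM in shACSL4. Of markers of other cells, 6 leukocyte genes summed to 10.6 to 13.2 against 4.39 to 6.07 CPM, with CD3E at 0. The 6 fibroblast genes summed to 2.26 to 4.37 against 2.40 to 2.68 CPM. The 4 endothelial genes summed to 0.740 to 1.25 against 0.705 to 1.01 CPM, with KDR at 0. The part of these markers in the results was not tested. In bulk RNA, a change in the number of cells of a kind and a change in RNA per cell cannot be told apart.

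Stretches upstream of 4 members that changed are shown because they hold matches to elements bound by bZIP dimers, in MAFG a loose one. They come from RefSeq on GRCh38.p14, lie before the gene's listed start, and are written 5′ to 3′ on the gene's strand. Bases in exons of protein coding genes are left out. Capitals mark a cAMP response element (TGACGTCA) in JUND at chr19:18281623-18281872 (minus strand) and a C/EBP-ATF composite element (TGATGNAA) in ATF3 at chr1:212565157-212565333 (plus strand). They mark a TPA response element (TGANTCA) in DDIT3 at chr12:57520744-57520764 (minus strand). In MAFG at chr17:81927736-81927985 (minus strand) they mark, read on the opposite strand, a loosened form of the antioxidant response element core (TGANNNNGC). That form leaves the base after TGA free, so a match need not be such an element.
JUND: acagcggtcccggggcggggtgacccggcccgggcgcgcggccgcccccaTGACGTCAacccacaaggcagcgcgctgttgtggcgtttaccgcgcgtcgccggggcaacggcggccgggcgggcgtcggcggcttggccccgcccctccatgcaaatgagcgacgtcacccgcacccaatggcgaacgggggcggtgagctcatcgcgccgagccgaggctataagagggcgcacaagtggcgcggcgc
ATF3: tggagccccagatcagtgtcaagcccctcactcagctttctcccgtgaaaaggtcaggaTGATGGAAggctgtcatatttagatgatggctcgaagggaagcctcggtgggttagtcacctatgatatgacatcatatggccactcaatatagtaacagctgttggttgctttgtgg
DDIT3: gcgcgcgcaTGACTCAcccac
MAFG: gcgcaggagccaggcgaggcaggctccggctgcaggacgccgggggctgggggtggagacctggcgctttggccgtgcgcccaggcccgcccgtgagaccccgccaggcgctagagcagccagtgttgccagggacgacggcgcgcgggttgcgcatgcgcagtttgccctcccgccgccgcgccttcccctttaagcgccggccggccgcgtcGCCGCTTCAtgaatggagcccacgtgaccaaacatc

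In GENCODE release 29 the DDIT3 stretch lies in introns of DDIT3 and of MBD6 on the opposite strand, 157 of the 250 MAFG bases lie in an exon of the antisense gene MAFG-DT, and the JUND and ATF3 stretches lie in no exon. The capitals begin 200 bases before the start in JUND, 191 in ATF3, 241 in DDIT3 and 36 in MAFG. RefSeq had such a window, 250 bases before to 50 after the start, for 40 of the 48 members and for 27305 genes in all. On either strand, TGACGTCA was in 6 of the 40 members (JUND, BACH2, MAF, CREB3L2, HLF and MAFF) and in 1.98% of all windows. TGANTCA was in 4 (FOSL2, ATF5, DDIT3 and ATF6B) and in 7.76% of all windows. TGATGNAA was in ATF3 alone among the members and in 3.67% of all windows, and TGANNNNGC was in 16 and in 42.1%. TGACG, which is part of TGACGTCA, was in 17 members and in 25% of all windows. These matches describe letters in the windows and were not measured as binding.

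The bZIP genes that changed were mostly higher in shACSL4. All JUN genes, the ATF2 trio, ATF3, DDIT3, ATF6B, CREB3L1 and BATF2 rose, while the small MAF genes MAFG and MAFK and the CNC genes NFE2L3, NFE2L1 and NFE2 fell. Of 48 members, 41 passed the filter on low counts and 7 did not. In edgeR's quasi-likelihood test, 27 of the 41 changed at a Benjamini-Hochberg adjusted p under 0.05, or 65.9%, where 47.2% of all 15694 genes tested changed. There were 19 higher and 8 lower members, or 46.3% and 19.5% of those tested, where 24% and 23.1% of all genes tested were higher and lower. In 30 members (73.2%) the ranges of the 2 groups were apart, which held for 55.1% of all genes tested.

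The median log2 fold change was 0.21 over the tested members and 0.01 over all genes tested, and the median absolute value was 0.49 against 0.35. Of all transcription factors in the table, 570 of 1069 tested (53.3%) changed, 383 higher (35.8%) and 187 lower (17.5%). The lean to higher calls was therefore also present in transcription factors at large. In the bHLH family 38.5% of 52 tested genes were higher and 17.3% lower, and in the ETS family 20% and 30% of 20. Where genes averaged 50 counts or more, 24 of 37 members (64.9%) and 52.9% of all such genes changed. With library size alone as the scaling, the median of all genes moved to 0.13 and 65.6% of all calls were higher, against 50.9% with TMM scaling, and the members then divided into 21 higher and 6 lower.

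**Figure D1:**
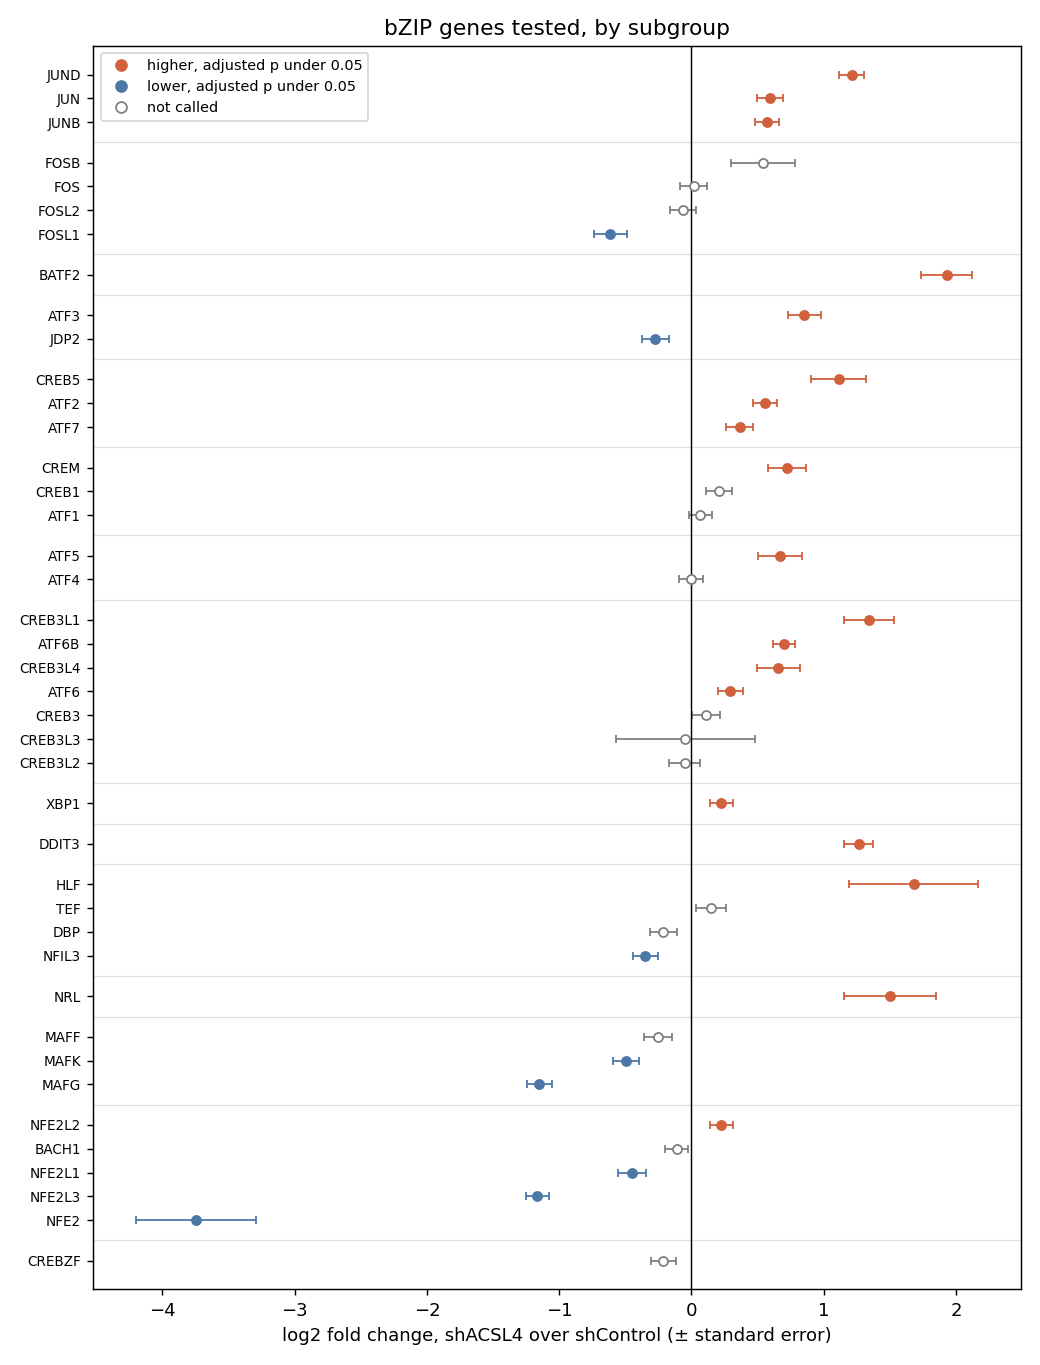
Log2 fold change of shACSL4 over shControl (horizontal axis) for the 41 bZIP genes tested, arranged by subgroup from top to bottom, with bars for the standard error. Filled points have an adjusted p under 0.05 (19 higher, 8 lower) and open points do not; the points run from NFE2 at -3.75 to BATF2 at 1.93.

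Compared per length, in the authors' FPKM, the most abundant bZIP transcripts in shControl were NFE2L3 at 179 ± 4.63, ATF4 at 122 ± 10.8 and XBP1 at 62.4 ± 5.64 FPKM (SD, n = 3). NFE2L3 and ATF4 did not overlap with the next in order, while XBP1 overlapped with NFE2L1 at 56.8 ± 3.34. JUNB, CREBZF, FOS and JUND followed, from 39.9 down to 34.6 FPKM, and each overlapped with its neighbour. In shACSL4 the order began with ATF4 at 121 ± 4.79, JUND at 79.3 ± 7.78 and NFE2L3 at 79.3 ± 3.98 FPKM. JUND stood at rank 8 in shControl and 2 in shACSL4, DDIT3 at 18 and 8, and MAFG at 9 and 19. The ranks in shACSL4 are not exact, since JUND overlapped with NFE2L3, DDIT3 with NFE2L1 and FOS, and MAFG with NFIL3 and ATF3.

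All 3 JUN genes, which encode the obligate partners of FOS proteins in AP-1, rose in shACSL4, where 24% of all genes tested rose. JUND (chromosome 19, 18279760 to 18281622) was at 58.4, 68.2 and 67.9 CPM in shControl and at 134, 154 and 162 CPM in shACSL4. Every shACSL4 library stood well above every shControl library. The means were 64.8 ± 5.61 and 150 ± 14.6 CPM (SD, n = 3), with a log2 fold change of 1.21 (SE 0.10, adjusted p = 4.06e-08). JUNB was at 74.2, 71.9 and 73.2 against 96.6, 116 and 112 CPM (0.57, SE 0.09, adjusted p = 6.4e-05), and its neighbour HOOK2 on the opposite strand was not called (0.12). JUN was at 102, 92.8 and 107 against 141, 174 and 141 CPM (0.59, SE 0.10, adjusted p = 0.000108). Neither gene's groups overlapped.

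FOS proteins bind DNA only with a partner such as JUN. Of the 4 FOS genes, 1 fell (25%, against 23.1% of all genes tested) and none passed the test upward. FOSL1 (FRA1), the FOS gene often tied to invasive growth, fell. It was at 45.6, 53.5 and 50.4 CPM in shControl and at 27.1, 40.5 and 29.8 CPM in shACSL4 (-0.61, SE 0.13, adjusted p = 0.000725). All 3 shACSL4 values lay below the shControl values, with replicate 2 the nearest. FOS stood at 127 ± 11.2 and 128 ± 16.1 CPM (SD, n = 3), a difference of 0.02 with a 95% interval of -0.19 to 0.23 (adjusted p = 0.911). FOSL2 (FRA2) stood at 167 ± 19.5 and 160 ± 14.6 CPM (-0.06, adjusted p = 0.637). FOSB was low, with 50, 45 and 39 counts in shControl and 51, 67 and 82 in shACSL4. Its groups did not overlap in CPM, and its difference missed the threshold (0.54, SE 0.24, adjusted p = 0.0759). With library size alone or without shACSL4 replicate 1 it was called (adjusted p = 0.0391 and 0.0477). ERCC1, which overlaps FOSB on the opposite strand, had a mean of 272.5 counts and was not called (0.0008).

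Summed over the 3 JUN genes, FPKM went from 103 ± 2.40 to 180 ± 16.3, and over the 4 FOS genes from 89.0 ± 3.59 to 78.8 ± 10.1 (SD, n = 3). JUND supplied 31.0%, 35.8% and 34.1% of the JUN sum in shControl and 43.6%, 42.2% and 46.2% in shACSL4, so its share was higher in each shACSL4 library. FOSL1 supplied 29.5% ± 1.90 of the FOS sum in shControl and 21.4% ± 1.97 in shACSL4 (SD, n = 3). These sums and shares are given without a test.

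BATF2, which pairs with JUN proteins and is an interferon-responsive gene, had the highest log2 fold change of the members. It had 62, 39 and 41 counts in shControl and 179, 222 and 156 in shACSL4, or 3.69, 2.45 and 2.76 against 11.5, 12.7 and 9.87 CPM. The lowest shACSL4 library was far above the highest shControl library (1.93, SE 0.19, adjusted p = 5.04e-07). Its relatives of lymphoid and myeloid cells were near absent, with no read for BATF and 0 to 3 counts per library for BATF3.

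ATF3, a stress-induced factor that forms dimers with JUN proteins, rose. It was at 21.1, 22.1 and 27.1 CPM in shControl and at 37.9, 49.9 and 38.8 CPM in shACSL4 (0.85, SE 0.12, adjusted p = 3.18e-05). The groups did not overlap, and shACSL4 replicate 2 was the highest. JDP2, a repressor that also dimerises with JUN, went the other way. It was at 45.5, 41.5 and 36.2 against 34.4, 35 and 32.5 CPM (-0.27, SE 0.10, adjusted p = 0.0332). The groups were close, and 6 of 13 alternatives did not call it, with adjusted p up to 0.208.

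**Figure D2:**
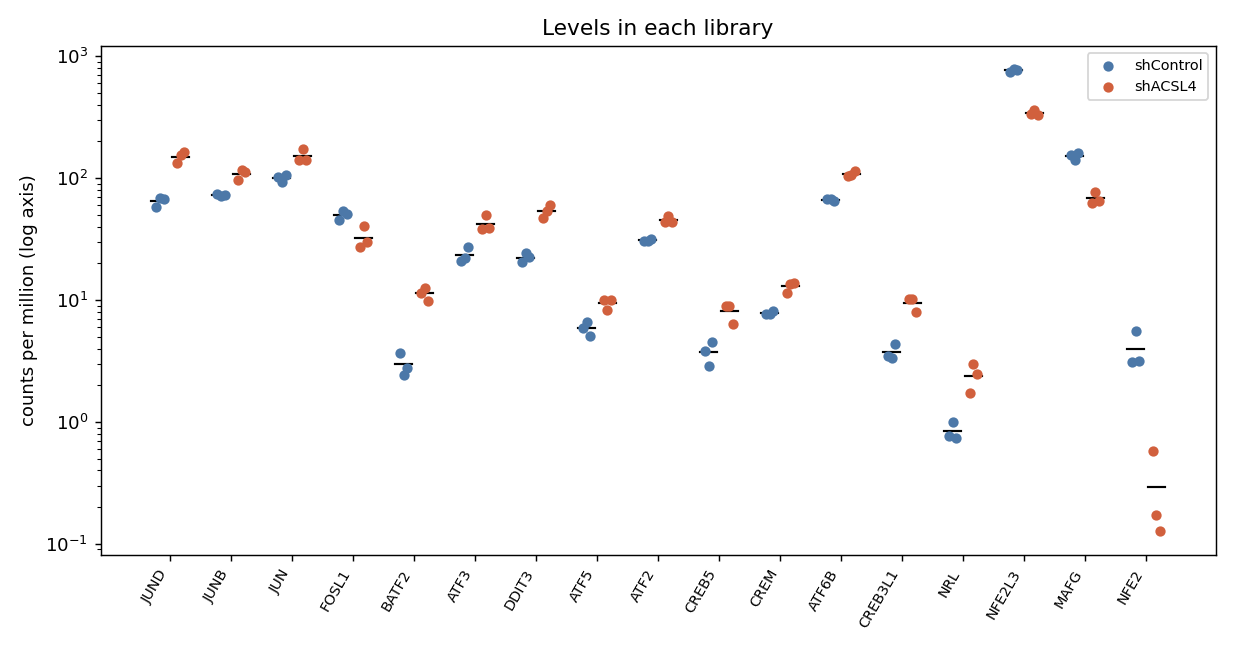
Level of 17 bZIP genes in each library, in CPM on a log axis, with shControl and shACSL4 as separate points and a black line for each group mean. JUND, BATF2, ATF3 and DDIT3 were higher in all 3 shACSL4 libraries, and FOSL1, NFE2L3, MAFG and NFE2 were lower in all 3.

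ATF2, ATF7 and CREB5, close relatives that are activated by JNK and p38 kinases, all rose, where 24% of all genes tested rose. ATF2 was at 30.8, 30.4 and 31.6 CPM in shControl and at 43.9, 48.6 and 43.6 CPM in shACSL4, with narrow groups (0.55, SE 0.09, adjusted p = 0.000104). CREB5 had 64, 46 and 67 counts against 139, 157 and 100, so it was low but higher in each shACSL4 library (1.11, SE 0.21, adjusted p = 0.000343). ATF7 was at 31.0, 26.0 and 30.9 against 40.0, 37.5 and 35.6 CPM (0.36, SE 0.10, adjusted p = 0.00728). The member AC023509.3 covers nearly the same locus on the same strand as ATF7, had 5 to 24 counts per library and was not tested.

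Among the cAMP-responsive factors phosphorylated by protein kinase A, CREM rose while CREB1 and ATF1 were not called. CREM was at 7.62, 7.72 and 8.20 CPM in shControl and at 11.4, 13.5 and 13.9 CPM in shACSL4 (0.72, SE 0.14, adjusted p = 0.000524). The groups were well apart. The 50 genes tested nearest to CREM had a median log2 fold change of 0.34, with 21 higher and 3 lower, and the part of the region was not tested. CREB1 was at 56.0 ± 5.19 and 64.6 ± 5.97 CPM (SD, n = 3) with groups that did not overlap (0.21, SE 0.10, adjusted p = 0.0907), and was called with library size alone (adjusted p = 0.0169). METTL21A, which overlaps CREB1 on the opposite strand, was lower (-0.78). ATF1 was at 64.4 ± 1.19 and 67.5 ± 5.76 CPM (0.07, adjusted p = 0.555).

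ATF4, the main effector of the integrated stress response and one that is largely controlled by translation, was nearly the same in both groups. It was at 286, 338 and 304 CPM in shControl and at 296, 312 and 319 CPM in shACSL4, with a 95% interval of the log2 difference from -0.19 to 0.19 (adjusted p = 0.987). ATF5, which is translated under similar control, rose. It was at 5.89, 6.65 and 5.11 against 9.94, 8.27 and 9.93 CPM, without overlap (0.67, SE 0.17, adjusted p = 0.00332). Its 50 neighbours had a median of 0.37, with 29 higher and 4 lower, and of the genes on the opposite strand NUP62 was higher (0.34) and IL4I1 lower (-1.68).

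DDIT3 (CHOP; chromosome 12, 57516588 to 57521737), which lies downstream of ATF4 and is known for its role in stress-induced cell death, rose. It was at 20.4, 24.2 and 22.4 CPM in shControl and at 46.8, 53.9 and 60.3 CPM in shACSL4. Each shACSL4 value was well above the highest shControl value (1.27, SE 0.11, adjusted p = 1.02e-07), a 2.4-fold difference. Of the genes that overlap it on the opposite strand, MARS (0.26) and MBD6 (0.51) were also higher, by less. The C/EBP genes proper, kept in a separate class of the table, were mixed. CEBPB, a factor of acute-phase and inflammatory genes, was at 112, 117 and 120 against 143, 185 and 188 CPM (0.56, SE 0.10, adjusted p = 0.000241). CEBPD, also inflammatory, was at 36.3, 35.1 and 47.4 against 23.4, 25.6 and 31.1 CPM (-0.57, SE 0.13, adjusted p = 0.00164). CEBPB therefore rose and CEBPD fell, each without overlap. CEBPG, a partner of ATF4, rose slightly (0.28, SE 0.08, adjusted p = 0.0119, and 0.0884 without shControl replicate 1). CEBPA was not called (0.20, adjusted p = 0.0773), but was with library size alone (0.00579) and without shACSL4 replicate 3 (0.0194). CEBPE had at most 3 counts in a library.

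Of the 7 membrane-bound factors, which are cut in the Golgi to release their bZIP part, 4 rose and none fell. The rises were 57.1%, where 24% of all genes tested were higher and 23.1% lower. ATF6B, the ATF6 paralog, was at 67.5, 67.3 and 64.6 CPM in shControl and at 104, 107 and 114 CPM in shACSL4 (0.70, SE 0.08, adjusted p = 3.47e-06). Both groups were tight and far apart. CREB3L1 (OASIS), known for driving secretory and collagen genes, had 58, 53 and 65 counts against 158, 178 and 125 (1.34, SE 0.19, adjusted p = 1.92e-05). CREB3L4 was at 11.5, 13.6 and 8.20 against 16.6, 16.2 and 19.8 CPM (0.66, SE 0.16, adjusted p = 0.00298). Neither gene's groups overlapped. ATF6 itself was at 59.8, 59.4 and 54.6 against 73.9, 76.4 and 62.4 CPM (0.29, SE 0.09, adjusted p = 0.0169). Its call was lost without shControl replicate 3, shACSL4 replicate 1 or shACSL4 replicate 2, with adjusted p up to 0.0962. CREB3 (0.11), CREB3L2 (-0.05) and CREB3L3 (-0.05, with 4 to 15 counts per library) were not called.

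XBP1, whose messenger is spliced by IRE1 and which supports secretory cells, was at 181, 209 and 180 CPM in shControl and at 222, 217 and 228 CPM in shACSL4. The groups did not overlap but were close (0.23, SE 0.09, adjusted p = 0.0429). That call did not hold in 7 of 13 alternatives, with adjusted p up to 0.181. Gene counts do not separate the spliced from the unspliced messenger.

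Among the PAR factors and NFIL3, which act on the same elements in circadian output, NFIL3 fell and HLF rose. NFIL3, the repressor, was at 39.4, 40.5 and 43.6 CPM in shControl and at 32.0, 34.2 and 30.9 CPM in shACSL4 (-0.35, SE 0.09, adjusted p = 0.00535, and 0.0552 with library size alone). All shACSL4 values were below all shControl values. HLF was rare, with 4, 5 and 5 counts against 11, 15 and 21 (1.68, SE 0.49, adjusted p = 0.00924), and without shACSL4 replicate 3 it missed the threshold (1.39, adjusted p = 0.0605). DBP was at 36.9 ± 2.45 and 31.8 ± 2.49 CPM with groups that did not overlap (-0.21, adjusted p = 0.0883; SD, n = 3). Its neighbour SPHK2 on the opposite strand was higher (1.28), so reads counted for DBP cannot be told apart from it without strand. TEF was not called (0.15, adjusted p = 0.288).

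All 3 small MAF genes, whose products lack an activation domain and serve as partners of CNC and BACH proteins, were at lower means in shACSL4. Of them 2 passed the test (66.7%, where 23.1% of all genes tested were lower). MAFG (chromosome 17, 81918270 to 81927714) was at 155, 141 and 160 CPM in shControl and at 62.9, 77.3 and 65.0 CPM in shACSL4. The shACSL4 libraries were all far below the shControl libraries. The means were 152 ± 9.83 and 68.4 ± 7.78 CPM (SD, n = 3), with a log2 fold change of -1.15 (SE 0.10, adjusted p = 6.65e-08). Its 50 neighbours had a median of -0.24, with 6 higher and 20 lower, and SIRT7, which overlaps it on the same strand, was lower by a smaller amount (-0.45). MAFK was at 108, 106 and 88.8 against 67.7, 79.9 and 68.0 CPM (-0.49, SE 0.10, adjusted p = 0.000601). TMEM184A, on the strand opposite MAFK, was higher (0.90). MAFF was at 35.2, 36.1 and 38.4 against 28.3, 35.4 and 28.1 CPM, with shACSL4 replicate 2 inside the shControl range. It missed the threshold (-0.26, SE 0.11, adjusted p = 0.0582) and passed it without that library (0.0155). PLA2G6, which overlaps MAFF on the opposite strand, was higher (0.38).

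Of the large MAF genes, which act in lens, pancreas, retina and blood cells, NRL alone was tested. NRL had 13, 16 and 11 counts in shControl and 27, 52 and 39 in shACSL4 (1.5, SE 0.35, adjusted p = 0.00197). It overlaps PCK2 on the opposite strand, which had a mean of 3795 counts and was higher (1.31), so the reads of NRL cannot be told apart from PCK2 reads. MAF and MAFA had at most 8 counts in any library, so a difference was not detectable with so few reads.

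The CNC genes, partners of the small MAFs, fell in 3 cases of 5 tested CNC and BACH genes and rose in 1. These were 60% and 20%, where 23.1% and 24% of all genes tested were lower and higher. NFE2L3 (NRF3; chromosome 7, 26152240 to 26187125), a factor known to be abundant in colorectal cancer, was at 749, 785 and 766 CPM in shControl and at 338, 360 and 328 CPM in shACSL4. Both groups were tight and widely separated. The means were 767 ± 18 and 342 ± 16.3 CPM (SD, n = 3), with a log2 fold change of -1.16 (SE 0.09, adjusted p = 1.92e-08). HNRNPA2B1, which overlaps NFE2L3 on the opposite strand, had a mean of 16562 counts and was not called (-0.18). NFE2L1 (NRF1), which drives proteasome genes, was at 345, 340 and 313 against 250, 276 and 205 CPM, without overlap (-0.45, SE 0.10, adjusted p = 0.00196). NFE2, the erythroid and platelet factor, was low and fell most, from 52, 89 and 47 counts to 9, 3 and 2 (-3.75, SE 0.46, adjusted p = 4.88e-06). Without shACSL4 replicate 1, which held 9 of those counts, its log2 fold change was -4.65.

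NFE2L2 (NRF2), the activator of antioxidant and detoxifying genes, did not fall with them. It was at 107, 125 and 108 CPM in shControl and at 134, 134 and 129 CPM in shACSL4 (0.23, SE 0.09, adjusted p = 0.0423). The groups did not overlap, but 6 of 13 alternatives did not call the rise, with adjusted p up to 0.189. AGPS, which overlaps it on the opposite strand, was higher (0.41). BACH1, the repressor of antioxidant response elements, was at 79.1 ± 4.88 and 73.1 ± 6.00 CPM (-0.11, adjusted p = 0.321; SD, n = 3), and BACH2 had 0 to 3 counts per library.

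Summed over the CNC and BACH genes, FPKM went from 264, 276 and 260 in shControl to 152, 162 and 140 in shACSL4. NFE2L3 supplied 67.3% ± 0.93 of that sum in shControl and 52.3% ± 1.62 in shACSL4, and NFE2L2 supplied 7.05% ± 0.46 and 14.4% ± 0.745 (SD, n = 3). Over the small MAF genes, the sum went from 57.9 ± 1.93 to 34.1 ± 3.83 FPKM. MAFG supplied 49.9% of it in shControl and 37.8% in shACSL4, and MAFK 38.9% and 46.5%. All shares are of RNA and were not tested.

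**Figure D3:**
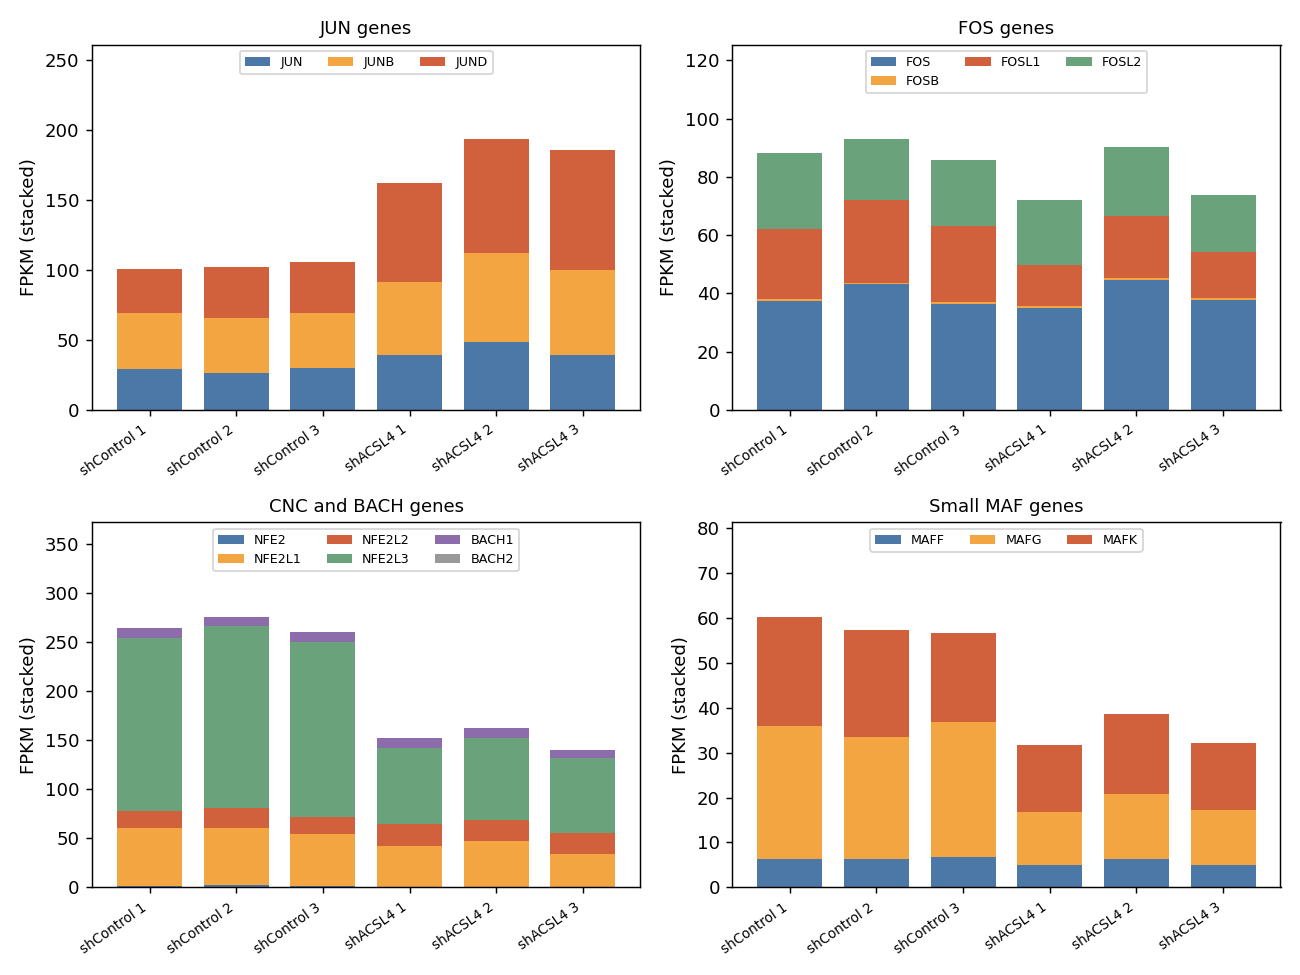
FPKM of the JUN, FOS, CNC with BACH, and small MAF genes, stacked by gene in each of the 6 libraries. The JUN total was higher in all shACSL4 libraries (162 to 193 against 101 to 105), and the CNC with BACH (140 to 162 against 260 to 276) and small MAF totals (31.7 to 38.5 against 56.5 to 60.1) were lower.

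CREBZF, an atypical bZIP corepressor, was at 220, 198 and 254 CPM in shControl and at 193, 186 and 199 CPM in shACSL4. The groups overlapped and the difference missed the threshold (-0.21, SE 0.10, adjusted p = 0.0765), but passed it without shControl replicate 2 (0.00927).

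Genes upstream and downstream of the bZIP factors were followed in 8 lists of textbook regulators and targets, with 140 genes tested. Of these 103 changed (73.6%, where 47.2% of all genes tested did), 43 higher and 60 lower. Among all genes that averaged 50 counts or more, 52.9% changed. The lists were chosen with earlier results of these data known, so their shares are description and not a test. Of 25 genes in the KEAP1 and NRF2 list, all tested, 22 fell (88%, against 23.1% of all genes tested) and 2 rose (8%, against 24%). Its median was -0.88, where all genes tested had 0.01. The aldo-keto reductase genes AKR1C1 (-4.36, SE 0.11) and AKR1B10 (-4.21, SE 0.12), whose near-identical relatives make their reads uncertain, fell furthest in that list. GCLM (-1.84, SE 0.09), the modifier of the ligase for glutathione, and TXNRD1 (-1.78, SE 0.09), the cytosolic thioredoxin reductase, fell as well. The rises were KEAP1 (0.23, adjusted p = 0.044), which targets NRF2 for degradation, and DPP3 (0.26, adjusted p = 0.0166), which binds KEAP1. The KEAP1 call was lost in 8 of 13 alternatives, with adjusted p up to 0.243, and the 2 rises became 0 with no filter and without shControl replicate 1, shControl replicate 3, shACSL4 replicate 1 or shACSL4 replicate 2. The 50 genes tested nearest to KEAP1 had a median of 0.19, with 20 higher and 6 lower. CUL3, the ligase scaffold of KEAP1, was at -0.20 (adjusted p = 0.0547).

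In the list of eIF2 kinases and ATF4 targets, 16 of 28 tested genes rose (57.1%, against 24% of all genes tested) and 5 fell (17.9%, against 23.1%), with a median of 0.35. PPP1R15A (GADD34), which recruits the phosphatase of eIF2, went from 29.6 ± 1.37 to 107 ± 19.6 CPM (SD, n = 3; 1.86, SE 0.12). CTH (1.63), an enzyme of cysteine synthesis, TRIB3 (1.37), a pseudokinase induced with CHOP, and SESN2 (1.27), an inhibitor of mTORC1, rose too. The falls included PPP1R15B (-0.88), the constitutive relative of PPP1R15A, VLDLR (-1.61) and the cystine transporter SLC7A11 (-0.74), which is also in the NRF2 list. Of the 4 kinase genes, EIF2AK2 rose (0.47), EIF2AK1 (-0.35) and EIF2AK4 (-0.44) fell, and EIF2AK3 was not called (0.15, adjusted p = 0.27).

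In the list of ATF6 and XBP1 sensors, proteases and targets, 3 of 23 genes rose (13.0%, against 24% of all genes tested) and 10 fell (43.5%, against 23.1%), with a median of -0.14. The rises included the sensors ERN2 (1.95, SE 0.09) and ERN1 (0.53, SE 0.10). The falls included HSPA5 (BiP), the main chaperone of the endoplasmic reticulum, from 905 ± 46.8 to 543 ± 13.9 CPM (SD, n = 3; -0.74, SE 0.09), and MANF (-0.68, SE 0.11), a secreted protein of the same response.

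In the list of JNK and p38 pathway kinases and DUSP phosphatases, 6 of 16 tested rose and 6 fell. These were 37.5% each, against 24% and 23.1% of all genes tested, with a median of 0.16. The phosphatases DUSP4 (1.92, SE 0.21) and DUSP1 (1.22, SE 0.15) rose and DUSP5 fell (-0.75, SE 0.10), and MAPK8, which encodes JNK1, rose (0.60, SE 0.11). The 50 genes tested nearest to MAPK8 had a median of 0.52, with 26 higher and 2 lower, and the part of the region was not tested. MAP2K6 also rose (0.63), while MAPK12 (-1.60), MAPK14 (-0.51), MAP2K3 (-0.49), MAP2K4 (-0.34) and MAPK9 (-0.24) fell. Of AP-1 targets, 4 of 16 tested rose (25%) and 5 fell (31.2%), with a median of 0.12. The share that rose was near the 24% of all genes tested, and the share that fell was not far above their 23.1%. AREG, an EGF receptor ligand (0.74), and the integrin ITGA2 (0.79) rose, and the protease inhibitor TIMP1 (-0.96) fell. With library size alone 7 AP-1 targets rose and 3 fell. The 5 falls also became 3 when genes had to average 50 counts, and without shControl replicate 1 or shACSL4 replicate 1.

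In the cAMP and CREB list, 6 of 17 genes rose and 6 fell (35.3% each, against 24% and 23.1% of all genes tested), with a median of -0.11. PCK1, the gluconeogenic CREB target, fell from 49.2 ± 3.88 to 8.65 ± 2.27 CPM (SD, n = 3; -2.51, SE 0.15), and so did the protein kinase A subunit PRKACB (-1.79, SE 0.15). The CREB target NR4A2 (1.19, SE 0.17) and the coactivator CREBBP (0.80, SE 0.12) rose. Of C/EBP targets of epithelium, 6 of 15 were tested, of which 3 rose and 2 fell (median 0.10). These were 50% and 33.3% of few genes, against 24% and 23.1% of all genes tested. The falls were LCN2 (-3.86, SE 0.10) and C3 (-6.02, SE 0.28, and -6.88 without shACSL4 replicate 1), both innate defence genes, and TRIB1 (0.78) and CXCL8 (0.76) were among the rises. Of 12 tested clock genes, 4 rose and 6 fell (33.3% and 50%, against the same 24% and 23.1%; median -0.29), with PER2 at 0.94, BHLHE41 at -0.81 and CRY1 at -0.56.

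**Figure D4:**
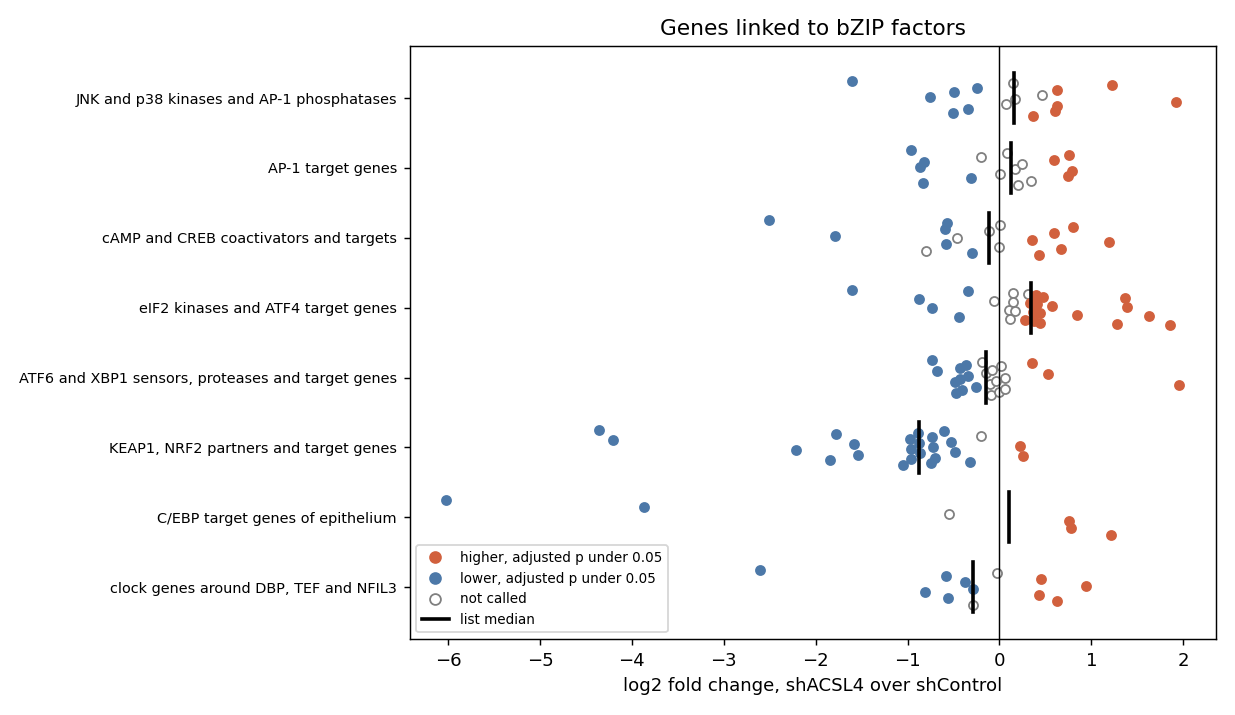
Log2 fold change of shACSL4 over shControl for each tested gene (points) of 8 lists of genes linked to bZIP factors, with a black line at each list's median. Filled points have an adjusted p under 0.05 and open points do not. The list of KEAP1 and NRF2 genes lies to the left, with 22 of 25 lower and a median of -0.88, and the list of ATF4 genes has 16 of 28 higher.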

How the data were processed

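RNA-seq counts were analysed for 3 shControl and 3 shACSL4 libraries of T84 cells. The authors deposited raw read counts per gene, per the file headers, with FPKM per library and their own log2 fold changes. CASAVA, HISAT2 and GRCh38 (hg38) are named in the submitters' processing notes. Which counter was used, and whether by strand, is not given in the sources used here. Overlapping genes therefore cannot be told apart. Control columns headed NC were taken as shControl, since the table holds only that group beside shACSL4, and were matched by number. No unmapped column of per-sample values was found (0).

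Genes were kept by filterByExpr, scaled by TMM and tested over 15694 genes in R 4.3.3 by edgeR 4.0.16 (quasi-likelihood) with no covariate. Changed means a Benjamini-Hochberg adjusted p under 0.05. CPM uses the scaled library sizes, and SE is the absolute log2 fold change divided by the root of the F statistic. A level of 3 counts was 0.171 to 0.202 CPM, and such floors cover counting error only. Signs equalled those in the authors' deposited table for all 41 members tested, with differences of at most 0.05. FPKM served only to compare genes with each other.

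Values in every library are given for changed members with an absolute log2 fold change of at least 0.8 and a mean of at least 20 counts and for the smallest adjusted p of each subgroup. Of each linked list, up to 4 changed genes with the smallest adjusted p are named. Some genes that these rules take are not reported here. Members outside this rule and EIF2AK1, EIF2AK2, EIF2AK3, EIF2AK4, PPP1R15B, VLDLR, SLC7A11, KEAP1, DPP3 and CUL3 were added after their values were seen. So were MAP2K3, MAP2K4, MAP2K6, MAPK9, MAPK12 and MAPK14. Members and lists were chosen with earlier results of these data known. Replicates of a group differed beyond sampling noise (chi-square per degree of freedom 3.95 to 15.8). Alternatives were a replicate block, DESeq2 1.42.0, voom from limma 3.58.1, scaling by library size alone or by median of ratios, testing without a filter or from a mean of 50 counts, and leaving out each library. The test was tested on simulated data for this comparison (15694 genes) and recovered 46.9% of genes changed 1.5-fold and 74.5% changed 2-fold. Far fewer genes were altered in the simulation than the 47.2% called here. The adjusted threshold therefore differs, and these rates may not hold for the real comparison.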

Additional observations from a re-analysis of the deposited data

How the results depend on the processing

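Across the alternatives, 24 to 27 of the bZIP genes changed, 16 to 21 of them higher and 6 to 8 lower, and 94 to 105 of the linked genes changed. Each of these counts stayed within 1.5 times its value with TMM scaling and all libraries, and ACSL4 was called lower in each alternative. Of the 27 changed members, 21 kept their call in every alternative run for them. The exceptions (XBP1, NFE2L2, JDP2, ATF6, NFIL3 and HLF) lost it in at least 1 alternative. Direction changed only for members that no setting called. With library size alone, ATF4 was at 0.12, FOSL2 at 0.0538, BACH1 at 0.00284, CREB3L2 at 0.0623 and CREB3L3 at 0.0620. With a mean of at least 50 counts ATF4 was at 0.0098. With limma-voom ATF4 was at 0.00030 and CREB3L3 at 0.0197. Leaving out each library gave -0.0607 to 0.0635 for ATF4, -0.140 to 0.0268 for FOSL2, -0.0866 to 0.0894 for FOS, -0.152 to 0.0642 for CREB3L2 and -0.429 to 0.253 for CREB3L3. The cause was not tested. With the replicate block, 27 members changed (19 higher, 8 lower) and ATF4 was at 0.00028, and the block changed no call of a member. Deviations of same-numbered libraries correlated at 0.116, -0.0285 and 0.0184. No pairing by number was seen, but 3 libraries a group with assumed control numbers cannot exclude it. Low depth limits NFE2, NRL, HLF, FOSB and CREB3L3 among the tested members and all 7 that were not tested. At 3 libraries a group, an exact permutation test of a single value cannot go below 0.10.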
